A study of Mus musculus with 36 samples.

Results

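The genes described here are 10 markers of endoplasmic reticulum (ER) stress and of the transcription factor ATF4: *Atf4*, *Ddit3*, *Trib3*, *Chac1*, *Sesn2*, *Asns*, *Psat1*, *Herpud1*, *Hspa5* and *Xbp1*. They were picked by gene name from the 53421 genes of the count table, and all 10 passed the filter on low counts. RNA was sequenced from an immortalised mouse line of fibroblast-like chondrocytes, the cell type of cartilage, labelled WT. Cells were transfected with a non-targeting siRNA pool (NT) or with a pool against *Ift88* (IFT88siRNA), which encodes a protein of intraflagellar transport needed to build the primary cilium. IL-1β, an inflammatory cytokine, was given at 10 ng/ml for 1, 2, 4, 8 or 24 h, and the 0 h cells received medium without it, with 3 replicates for each of the 12 conditions. The sample labels give the siRNA at 50 nM and the methods at 10 nM, and neither says whether replicates were separate cultures, so p-values measure only the spread between these libraries.

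Unfolded protein in the ER is sensed by PERK, IRE1 and ATF6. PERK, and the kinases GCN2, PKR and HRI that answer other stresses, phosphorylate the initiation factor eIF2α, which lowers translation in general but favours translation of *Atf4* mRNA, so the amount of ATF4 protein does not follow from the mRNA alone. ATF4 then switches on *Ddit3*, *Trib3*, *Chac1*, *Sesn2*, *Asns* and *Psat1*, while *Herpud1*, *Hspa5* and *Xbp1* are classical targets of the ER-resident sensors. Chondrocytes secrete large amounts of matrix protein and depend on this system. Whether *Xbp1* mRNA was spliced by IRE1 cannot be read from counts per gene.

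The 36 libraries held from 19337022 to 38304127 counts on genes, with a median of 21672803.5 in NT and 25873754 in IFT88siRNA. The targeted gene *Ift88* was at 5.68 to 10.3 CPM (a gene's share of the library's counts, scaled to a common total after TMM normalisation) in the 18 NT libraries and at 1.41 to 3.14 CPM in the 18 IFT88siRNA libraries. Markers of fibroblasts were all present, at a mean above 1 TPM (Salmon's length-corrected share of transcripts, on the same scale) for 8 of 8, against 6 of 9 for chondrocytes. Of the genes that define cartilage, *Sox9* averaged 14.7 TPM and *Col2a1* 3.58 TPM, and *Acan* was nearly absent at 0.0591 TPM. Of the markers of other cell types, 2 of 6 for macrophages (*Cd68* and *Cd14*), 0 of 5 for endothelium and 1 of 5 for epithelium passed 1 TPM. In bulk RNA, a change in the number of cells of one kind and a change in RNA per cell cannot be told apart.

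The promoters of 5 of these genes carried letters to which stress factors are known to bind. Motifs of 3 kinds were searched on both strands of the RefSeq window from 250 bases before to 50 bases after the start site, in the GRCm38.p6 table, where all 10 genes were found. The core of the C/EBP-ATF response element, TGATGNAA, was present in 4 of the 10 genes, against 3.97% of all 32851 windows. The ER stress response element was searched only in the form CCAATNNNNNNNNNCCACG. That form was present in *Hspa5* alone of the 10 and in 0.119% of all windows. Other forms of the element were not searched, so a gene without this match may still hold one. The unfolded protein response element, TGACGTGG, was in 0 of the 10 and in 0.676% of all windows. The 4 runs below are the 250 bases before the start site, 5′ to 3′ on the strand of the gene, and are shown because they hold such a match, in capitals. The capitals mark the ATF core in *Asns* (chr6:7693210-7693459, minus strand, positions −23 to −16 from the start), in *Chac1* (chr2:119350992-119351241, plus strand, −193 to −186, reverse strand) and in *Herpud1* (chr8:94386179-94386428, plus strand, −112 to −105, reverse strand), and the ER stress element in *Hspa5* (chr2:34771840-34772089, plus strand, −65 to −47).

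Asns: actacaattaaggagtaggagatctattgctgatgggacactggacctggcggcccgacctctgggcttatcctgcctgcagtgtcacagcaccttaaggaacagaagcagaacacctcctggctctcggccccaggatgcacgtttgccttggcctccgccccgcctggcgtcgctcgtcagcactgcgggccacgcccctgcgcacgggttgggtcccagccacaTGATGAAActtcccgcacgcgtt

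Chac1: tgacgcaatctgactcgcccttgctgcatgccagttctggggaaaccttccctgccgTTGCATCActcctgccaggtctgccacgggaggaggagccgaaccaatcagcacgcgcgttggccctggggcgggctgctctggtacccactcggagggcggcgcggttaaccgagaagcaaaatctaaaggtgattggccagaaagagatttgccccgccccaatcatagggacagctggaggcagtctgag

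Herpud1: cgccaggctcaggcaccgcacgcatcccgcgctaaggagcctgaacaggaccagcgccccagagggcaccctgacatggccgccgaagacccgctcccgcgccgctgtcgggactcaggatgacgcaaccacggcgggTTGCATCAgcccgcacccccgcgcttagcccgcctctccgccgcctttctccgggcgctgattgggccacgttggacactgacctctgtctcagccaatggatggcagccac

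Hspa5: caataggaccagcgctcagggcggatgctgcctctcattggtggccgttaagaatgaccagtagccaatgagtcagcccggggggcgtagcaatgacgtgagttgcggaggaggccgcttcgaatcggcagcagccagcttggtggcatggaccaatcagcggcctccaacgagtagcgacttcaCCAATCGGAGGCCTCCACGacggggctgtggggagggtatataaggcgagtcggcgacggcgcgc

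In *Trib3* the ATF core lay after the RefSeq start site, at 15 to 22 on the reverse strand. All positions here count from the RefSeq start, whereas the gene coordinates given below are those of GENCODE, and the starts differ. By the GENCODE coordinates the match in *Trib3* lies before the gene, and those in *Asns* and *Hspa5* lie inside it. *Atf4*, *Ddit3*, *Psat1*, *Sesn2* and *Xbp1* had no match to these letters in this window. A match is a description of the letters and was not a measurement of binding.

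Levels were compared between genes only as TPM, which is per length. *Hspa5* was the most abundant of the 10, with a mean of 860.0 TPM over 36 libraries (range 627 to 1256) and no overlap with the next gene, followed by *Atf4* with 269.6 TPM and *Psat1* with 205 TPM. *Herpud1* averaged 138 TPM, and *Asns* and *Ddit3* were nearly level, with means of 98.6 and 97.0 TPM and ranges of 60.7 to 177 and 76.8 to 125. *Xbp1* and *Sesn2* followed, with means of 51.1 and 50.2 TPM. *Chac1* averaged 24.03 TPM and *Trib3*, the rarest, 9.96 TPM. Neighbours in this order had overlapping ranges over the 36 libraries, apart from *Hspa5* and *Atf4* and from *Ddit3* and *Xbp1*. Even *Trib3* had from 104 to 491 counts per library, and the largest coefficient of variation among the 3 replicates of a condition ran from 5.77% for *Atf4* to 12.6% for *Trib3*.

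**Figure D1:**
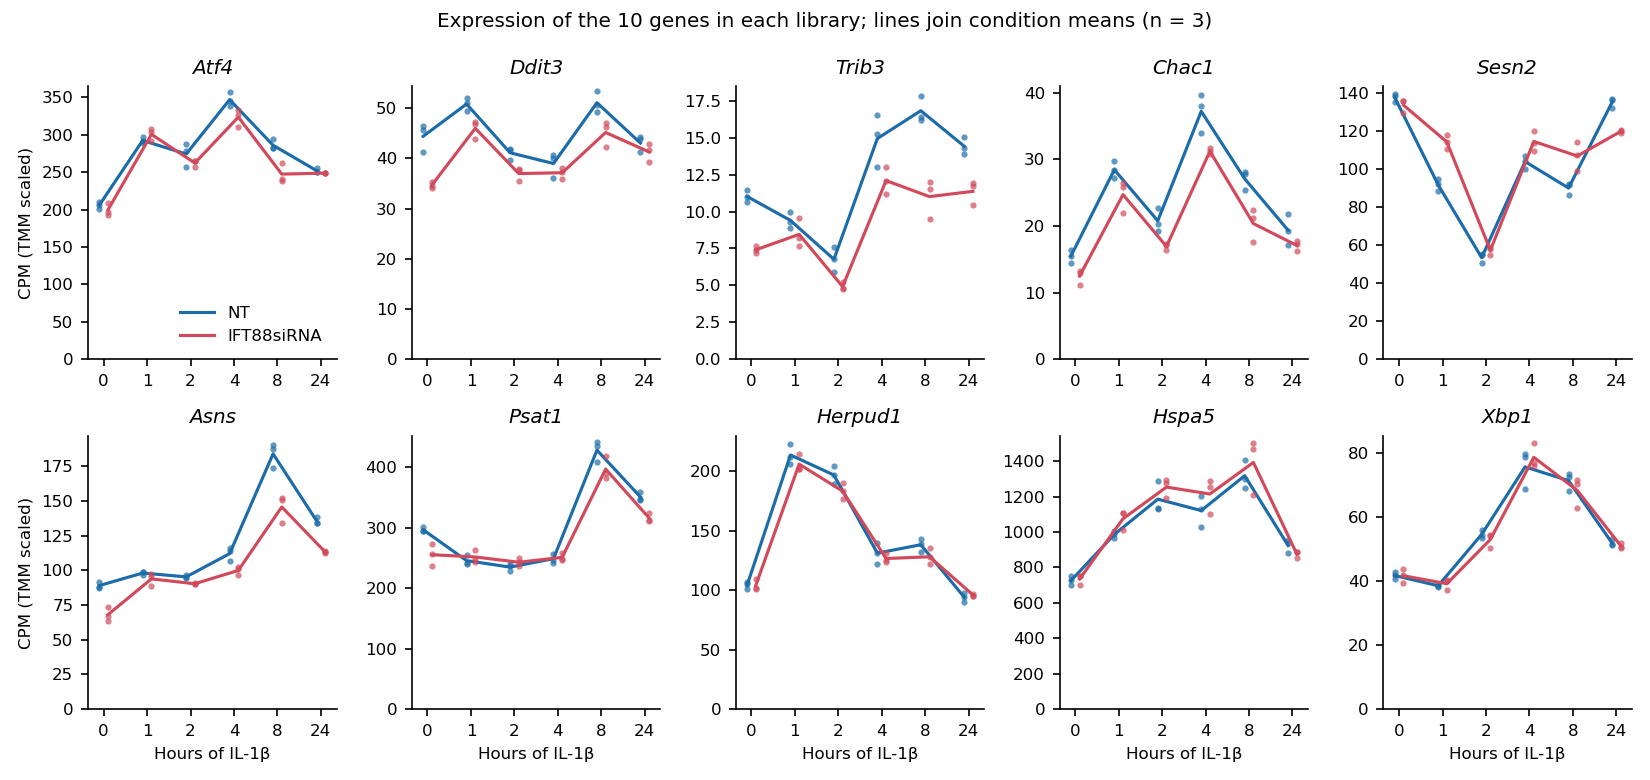
CPM of each of the 10 genes (vertical axes from 0, TMM-scaled) against hours of IL-1β (equally spaced), with 1 point per library and lines through the means of 3 replicates, NT in blue and IFT88siRNA in red. *Herpud1* peaks at 1 h, *Chac1* and *Xbp1* at 4 h and *Asns* at 8 h, *Sesn2* dips at 2 h, and the red points of *Trib3* and *Asns* at 0 h lie below the blue ones.

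IL-1β changed most of these genes in NT cells, but at different times. The threshold for a call was an adjusted p under 0.05 together with a fold over 1.5, that is an absolute log2 change over 0.585. By that rule 8 of the 10 changed at 1 or more times (all genes: 50.0%), and with the adjusted p alone 10 of 10 did (all genes: 88.4%). Counted over 10 genes and 5 times, 17 of 50 differences from 0 h passed both thresholds (all genes: 22.1%) and 45 of 50 the adjusted p alone (all genes: 54.2%). Changes below are on the log2 scale of TMM-scaled counts, from edgeR's quasi-likelihood test with Benjamini-Hochberg adjustment over all genes tested, and the 5 times share the same 3 libraries at 0 h.

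At 1 h, *Herpud1* and *Chac1* were raised (2 of 10, all genes: 9.22%) and *Sesn2* was lowered (1 of 10, all genes: 9.45%). At 2 h, *Herpud1* and *Hspa5* were raised (2 of 10, all genes: 13.0%) and *Sesn2* and *Trib3* were lowered (2 of 10, all genes: 14.3%). At 4 h, *Atf4*, *Chac1*, *Hspa5* and *Xbp1* were raised (4 of 10, all genes: 16.3%) and no gene of the 10 was lowered (all genes: 12.4%). At 8 h, *Asns*, *Hspa5*, *Chac1*, *Xbp1* and *Trib3* were raised (5 of 10, all genes: 11.8%) and *Sesn2* was lowered (1 of 10, all genes: 7.87%). At 24 h edgeR called 0 of the 10 in either direction (all genes: 6.61% up and 9.71% down). Yet 8 of 10 had an unadjusted p under 0.05 (all genes: 51.3%). The same 8 passed the adjusted p alone, which can hold for at most that 51.3% of all genes. DESeq2 called 1, *Asns*, and its share of all genes is not given here.

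**Figure D2:**
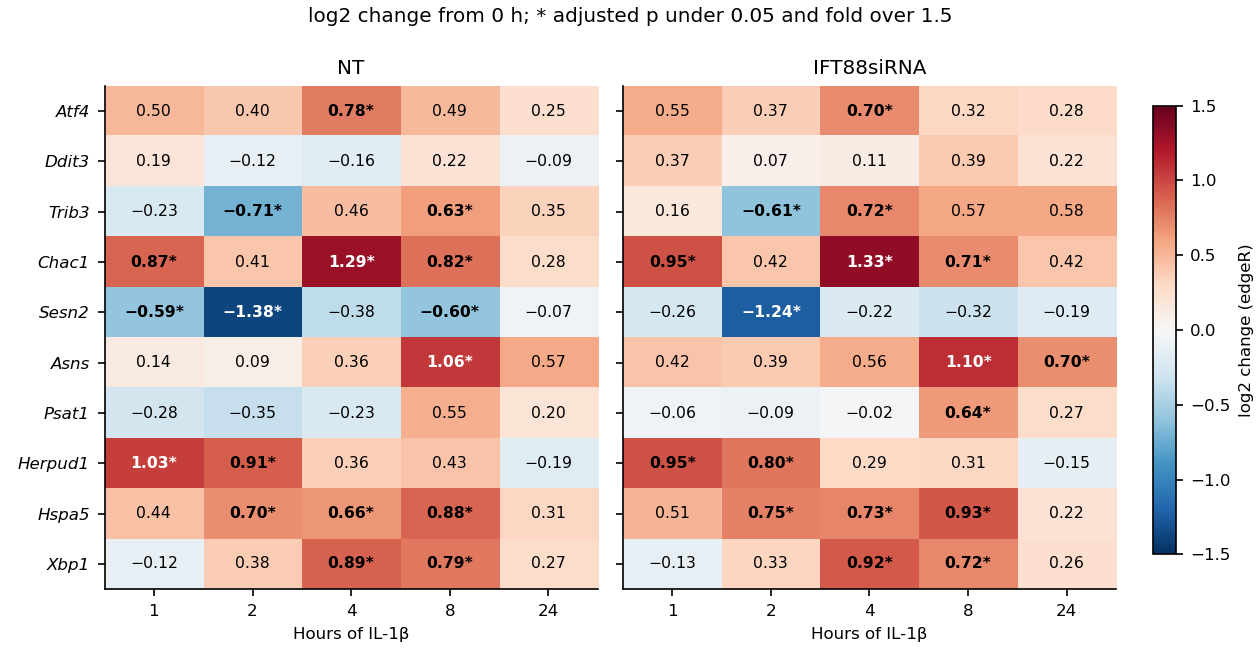
log2 change from 0 h (edgeR) of the 10 genes at the 5 times after IL-1β in NT (left) and in IFT88siRNA (right). Red is higher and blue lower than at 0 h, and an asterisk marks an adjusted p under 0.05 with a fold over 1.5. The starred cells move from *Herpud1* and *Chac1* at 1 h to *Asns* at 8 h, *Sesn2* is blue throughout, and *Ddit3* has no star in either panel.

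*Atf4* (chr15:80255184-80257541, plus strand, GRCm38) encodes the transcription factor itself. In NT it was at 201, 206 and 211 CPM at 0 h, 289, 297 and 291 CPM at 1 h and 357, 338 and 345 CPM at 4 h. The 4 h libraries were the highest of the course and the 0 h libraries the lowest, and neither overlapped any other time. In between, the ranges at 2 h (257 to 288 CPM) and 8 h (282 to 294 CPM) overlapped, 8 h also overlapped 1 h, and all were above 24 h (249.9 to 256 CPM). The change from 0 h was 0.50 ± 0.0402 (SE, adjusted p = 2.00e-10) at 1 h and 0.78 ± 0.0402 (SE, adjusted p = 1.43e-14) at 4 h, the latter 1.72-fold. With the TPM values the 4 h change of *Atf4* was 0.51, below the fold threshold, but the median of all genes was then at −0.22, and relative to it the change was 0.73.

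*Ddit3* (chr10:127290774-127296288, plus strand) encodes CHOP, a C/EBP-family factor of prolonged ER stress, and passed the fold threshold at no time. Its NT libraries were at 46.4, 41.2 and 45.5 CPM at 0 h, 49.4, 52.0 and 51.1 CPM at 1 h and 50.6, 49.2 and 53.4 CPM at 8 h. All 3 libraries at 1 h and at 8 h were above all 3 at 0 h, yet the changes were small, 0.19 ± 0.0555 at 1 h and 0.22 ± 0.0549 at 8 h. At 4 h it was −0.16 ± 0.0571, with libraries at 36.1 to 40.7 CPM, below those at 0 h. Each of these passed the adjusted p (0.00564, 0.00160 and 0.0175) but none the fold. Leaving out 1 replicate took the adjusted p to as much as 0.0773 at 1 h (without replicate 2) and 0.106 at 4 h (without replicate 1). With TPM the change of *Ddit3* at 1 h turned to −0.0053, that at 8 h was 0.095 and did not pass (limma, adjusted p = 0.119), and that at 4 h was −0.43. The median of all genes was then at −0.14 at 1 h, −0.088 at 8 h and −0.22 at 4 h. Of the exonic bases of *Ddit3*, 3.97% lie within *Mars* and 0.759% within *Gm4189*, both on the opposite strand, and the counting is not stated to use strand, so reads there cannot be told apart.

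*Trib3* (chr2:152337422-152344032, minus strand), a pseudokinase that binds ATF4 and is known to damp its activity, fell before it rose. The NT libraries were at 10.7, 10.97 and 11.4 CPM at 0 h, 5.91, 6.77 and 7.62 CPM at 2 h and 16.4, 16.2 and 17.8 CPM at 8 h. All 2 h libraries were below, and all 8 h libraries above, every library at 0 h. The changes were −0.71 ± 0.0998 (SE, adjusted p = 1.31e-06) at 2 h and 0.63 ± 0.0864 (SE, adjusted p = 1.17e-06) at 8 h. The rise at 8 h lost the fold threshold with upper-quartile scaling and with TPM.

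*Chac1* (chr2:119351229-119354381, plus strand), which encodes an enzyme that breaks down glutathione, showed an early and a later rise. Its NT libraries were at 16.5, 15.5 and 14.5 CPM at 0 h, 27.2, 28.3 and 29.7 CPM at 1 h, 19.3, 22.7 and 20.3 CPM at 2 h, 38.0, 34.0 and 39.6 CPM at 4 h and 27.7, 25.4 and 28.1 CPM at 8 h. The 2 h libraries were below all libraries at 1 h and at 4 h, so the profile had a dip between both rises. The changes were 0.87 ± 0.0872 (SE, adjusted p = 9.40e-09) at 1 h, 1.29 ± 0.0855 (SE, adjusted p = 1.99e-12) at 4 h and 0.82 ± 0.0865 (SE, adjusted p = 1.61e-08) at 8 h. The change at 4 h, 2.45-fold, was the largest rise among the 10 genes in NT.

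*Sesn2* (chr4:132492032-132510501, minus strand) encodes a sestrin, a leucine sensor that restrains the growth kinase mTORC1, and was the only one of the 10 whose calls in NT were all downward. It was at 139, 135 and 139 CPM at 0 h and at 50.5, 54.7 and 55.3 CPM at 2 h, with no overlap. At 4 h it was at 107, 100.4 and 105 CPM, at 8 h it was at 91.9, 86.5 and 92.1 CPM, below every 4 h library, and at 24 h it was at 132 to 137 CPM, which overlapped 0 h. The changes were −0.59 ± 0.0440 at 1 h (adjusted p = 5.37e-11), −1.38 ± 0.0458 at 2 h (3.57e-18) and −0.60 ± 0.0437 at 8 h (2.45e-11). The changes at 1 h and 8 h were close to the fold threshold, and fell short of it without replicate 1 (−0.56 at 1 h, where RLE scaling and DESeq2 also lost the call) and without replicate 2 (−0.57 at 8 h).

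The genes of amino acid synthesis rose late. *Asns* (chr6:7675169-7693254, minus strand), asparagine synthetase, was at 88.0, 87.5 and 91.6 CPM at 0 h, 116, 106 and 114 CPM at 4 h and 191, 174 and 187 CPM at 8 h. Its 8 h libraries were the highest of the course and those at 24 h (134 to 139 CPM) were the next, both without overlap. The change was 0.36 ± 0.0465 at 4 h, 1.06 ± 0.0456 (SE, adjusted p = 7.84e-16) at 8 h and 0.57 ± 0.0456 at 24 h. The last was just short of the fold threshold and rose to 0.61 without replicate 3, which passed it. *Psat1* (chr19:15904678-15947337, minus strand), an enzyme of serine synthesis, had NT libraries at 295, 294 and 300.5 CPM at 0 h, 228, 239 and 237 CPM at 2 h and 435, 409 and 441 CPM at 8 h. It was thus lower at 2 h and higher at 8 h than at 0 h in all libraries, by −0.35 ± 0.0419 (SE, adjusted p = 1.16e-07) and 0.55 ± 0.0414 (SE, adjusted p = 4.83e-11), and passed the fold threshold at no time.

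Of the ER genes, *Herpud1* (chr8:94386438-94395377, plus strand), an ER membrane protein that serves degradation of misfolded proteins, was the earliest. Its NT libraries were at 101, 107 and 105 CPM at 0 h, 212, 206 and 223 CPM at 1 h, 189, 205 and 197 CPM at 2 h and 139.9, 122 and 131 CPM at 4 h. Every library at 1 h was above every library at 2 h, and by 24 h (90.3 to 97.5 CPM) all were below those at 0 h. The changes were 1.03 ± 0.0528 (SE, adjusted p = 3.61e-14) at 1 h and 0.91 ± 0.0528 (SE, adjusted p = 2.33e-13) at 2 h, and −0.19 ± 0.0534 (SE, adjusted p = 0.00613) at 24 h. The adjusted p at 24 h was up to 0.113 with 1 replicate left out.

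*Hspa5* (chr2:34771970-34777547, plus strand) encodes BiP, the main chaperone of the ER lumen. It was at 698, 726 and 751 CPM at 0 h, 1137, 1288 and 1131 CPM at 2 h, 1202, 1132 and 1029 CPM at 4 h and 1406, 1301 and 1247 CPM at 8 h. All libraries from 2 h to 8 h were above all libraries at 0 h, the 2 h libraries overlapped those at 4 h and at 8 h, and every library at 8 h was above every library at 4 h. The changes were 0.70 ± 0.0556, 0.66 ± 0.0556 and 0.88 ± 0.0557 (SE, adjusted p = 1.60e-12). The 4 h change of *Hspa5* was 0.57 without replicate 1, under the fold threshold, as it was with upper-quartile scaling and with TPM.

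*Xbp1* (chr11:5520659-5525893, plus strand), whose spliced mRNA encodes a factor for secretory capacity, was at 41.8, 40.5 and 42.9 CPM at 0 h, 38.3, 38.4 and 39.0 CPM at 1 h, 78.8, 79.6 and 68.7 CPM at 4 h and 72.6, 73.5 and 68.2 CPM at 8 h. The libraries at 4 h and 8 h overlapped and were above all others. The changes were 0.89 ± 0.0528 (SE, adjusted p = 2.44e-13) at 4 h and 0.79 ± 0.0524 (SE, adjusted p = 3.79e-12) at 8 h, after −0.12 ± 0.0554 at 1 h, which did not pass the adjusted p (0.0751).

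The split of calls between higher and lower depended on the scaling. With TMM, 13 of the 17 calls in NT were upward and 4 downward, and with TPM 8 were upward and 6 downward. With TPM, *Herpud1* and *Hspa5* at 2 h, *Atf4* and *Hspa5* at 4 h and *Trib3* at 8 h lost the call, and falls of *Psat1* at 2 h and *Sesn2* at 4 h gained it. TPM moved the median log2 change of all genes after IL-1β by between −0.058 and −0.21, and upper-quartile scaling by up to −0.12. Relative to the median of all genes, the calls were 12 upward and 4 downward with TPM and 14 upward and 3 downward with TMM.

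In IFT88siRNA cells, 9 of the 10 genes changed after IL-1β (all genes: 48.2%), *Psat1* in addition to those called in NT. Over the 5 times, 17 of 50 differences passed both thresholds (all genes: 20.4%) and 43 of 50 the adjusted p alone (all genes: 49.6%). *Psat1* was at 256, 237 and 273 CPM at 0 h and at 418, 382 and 391 CPM at 8 h, a change of 0.64 ± 0.0531 (SE, adjusted p = 3.53e-10). With TPM it was 0.55, under the fold threshold, and the change at 8 h in IFT88siRNA less that in NT was 0.10 ± 0.0666 (SE, adjusted p = 0.681), which did not pass. With TPM 11 of the 50 were called in IFT88siRNA. *Herpud1* was again highest at 1 h, with 202, 202 and 215 CPM against 101, 101 and 109 CPM at 0 h (0.95 ± 0.0502). *Chac1* at 4 h (1.33 ± 0.0893), *Xbp1* at 4 h (0.92 ± 0.0560) and *Asns* at 8 h (1.10 ± 0.0567) also peaked at the times seen in NT. *Trib3* had its highest mean at 4 h here with 11.2 to 13.0 CPM, overlapping 9.47 to 12.01 CPM at 8 h and 10.4 to 11.9 CPM at 24 h. Its changes from 0 h did not differ between the siRNA groups by edgeR's joint test over the 5 times (adjusted p = 0.199). *Ddit3* was at 0.37 ± 0.0569 at 1 h and 0.39 ± 0.0567 at 8 h and was not called.

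The next comparison asked which of the 10 genes differed between IFT88siRNA and NT. Over the whole course, *Trib3* alone passed both thresholds (1 of 10, all genes: 5.19%), and 7 of 10 passed the adjusted p alone (all genes: 31.8%). The 7 were *Atf4* and its 6 targets listed above, and their adjusted p was at most 0.00137. *Atf4* lost it without replicate 3 (0.0806) and *Psat1* without replicate 1 (0.0852). *Herpud1*, *Hspa5* and *Xbp1* did not pass (adjusted p = 0.0938, 0.407 and 0.800). The separation of these genes from the others depended on the setting, since *Herpud1* passed in 5 of 11 alternatives (upper-quartile scaling, 0.0167, DESeq2, 0.0411, and TPM, 0.00748 to 0.0156) and *Hspa5* in 1 (no filter on low counts, 0.00962), while *Xbp1* passed in 0. At single times, 1 of 60 differences passed both thresholds (all genes: 1.28%) and 17 of 60 the adjusted p alone (all genes: 9.70%). Of these 17, 15 were lower in IFT88siRNA and 2 higher, both in *Sesn2*. Of all genes that passed both thresholds over the course, 573 were only lower, 197 only higher and 98 both at different times.

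Before IL-1β, at 0 h, 5 of the 10 genes were lower in IFT88siRNA by the adjusted p alone (all genes: 9.43% lower, and 19.5% in either direction). *Asns* was at 67.1, 63.6 and 73.5 CPM, against 88.0, 87.5 and 91.6 CPM in NT. *Ddit3* was at 34.5, 35.4 and 34.1 CPM, against 46.4, 41.2 and 45.5 CPM. *Trib3* was at 7.19, 7.65 and 7.38 CPM, against 10.7, 10.97 and 11.4 CPM. In these 3 genes, and in *Chac1* (11.1 to 13.3 CPM against 14.5 to 16.5 CPM) and *Psat1* (237 to 273 CPM against 294 to 300.5 CPM), every IFT88siRNA library was below every NT library. The differences were −0.39 ± 0.0491 (SE, adjusted p = 5.62e-06) for *Asns*, −0.36 ± 0.0543 (SE, adjusted p = 5.39e-05) for *Ddit3*, −0.58 ± 0.0847 (SE, adjusted p = 3.95e-05) for *Trib3*, −0.32 ± 0.0809 (SE, adjusted p = 0.00769) for *Chac1* and −0.22 ± 0.0453 (SE, adjusted p = 0.00139) for *Psat1*. *Atf4* itself was at 193, 197 and 208 CPM against 201, 206 and 211 CPM and overlapped, with a difference of −0.048 ± 0.0417. Without replicate 1 the difference of *Chac1* was −0.19 and its adjusted p 0.175, while the other 4 genes passed whichever replicate was left out. With TPM, *Psat1* lost the adjusted p at all 3 settings (0.0607 to 0.143), and without a filter on low values *Ddit3* (0.0510), *Asns* (0.0538) and *Chac1* (0.0810) lost it too, so that *Trib3* alone passed.

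After IL-1β the number of genes that differed varied with time. At 1 h, 3 of 10 genes passed the adjusted p (all genes: 19.0%): *Ddit3* (−0.19 ± 0.0504) and *Chac1* (−0.24 ± 0.0732) were lower, and *Sesn2* (0.27 ± 0.0427) was higher. At 2 h edgeR gave 0 of 10 (all genes: 2.76%), with 5 of 10 at an unadjusted p under 0.05 (all genes: 17.2%), and DESeq2 also gave 0. At 4 h *Chac1* alone passed (−0.27 ± 0.0693, adjusted p = 0.0371, all genes: 3.85%). At 24 h *Trib3* (−0.35 ± 0.0774), *Asns* (−0.26 ± 0.0438) and *Sesn2* (−0.17 ± 0.0449) were lower (3 of 10, all genes: 8.66%). Most of these calls depended on the replicates. *Ddit3* and *Chac1* at 1 h and *Chac1* at 4 h lost it without replicate 1 or without replicate 3, with adjusted p-values of up to 0.116, 0.151 and 0.387. At 24 h *Trib3* (0.196), *Asns* (0.112) and *Sesn2* (0.380) lost it without replicate 2, and *Sesn2* also without replicate 1. *Sesn2* at 1 h passed whichever replicate was left out.

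At 8 h, 5 of 10 genes passed the adjusted p (all genes: 4.25%) and *Trib3* passed both thresholds (1 of 10, all genes: 0.692%). *Trib3* was at 12.01, 9.47 and 11.6 CPM, against 16.4, 16.2 and 17.8 CPM in NT, with no overlap and a difference of −0.64 ± 0.101 (SE, adjusted p = 0.00701). *Asns* was at 152, 134 and 151 CPM, against 191, 174 and 187 CPM in NT, with no overlap and a difference of −0.36 ± 0.0641 (SE, adjusted p = 0.0126). *Chac1* (−0.44 ± 0.0934) and *Atf4* (−0.23 ± 0.0521) were also lower, and *Sesn2* was higher (0.22 ± 0.0561). Without replicate 1 or without replicate 2 the adjusted p of *Trib3* at 8 h rose to 0.0660 and 0.0579, while the difference stayed between −0.70 and −0.56. Without replicate 1 or without replicate 2 the other 4 genes also lost the adjusted p at 8 h, with values of up to 0.141 for *Asns*, 0.143 for *Chac1*, 0.370 for *Atf4* (lost without replicate 3 as well) and 0.457 for *Sesn2*. With TPM, none of the 5 passed at 8 h at any of the 3 settings, and *Trib3* passed both thresholds at 0 h instead.

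**Figure D3:**
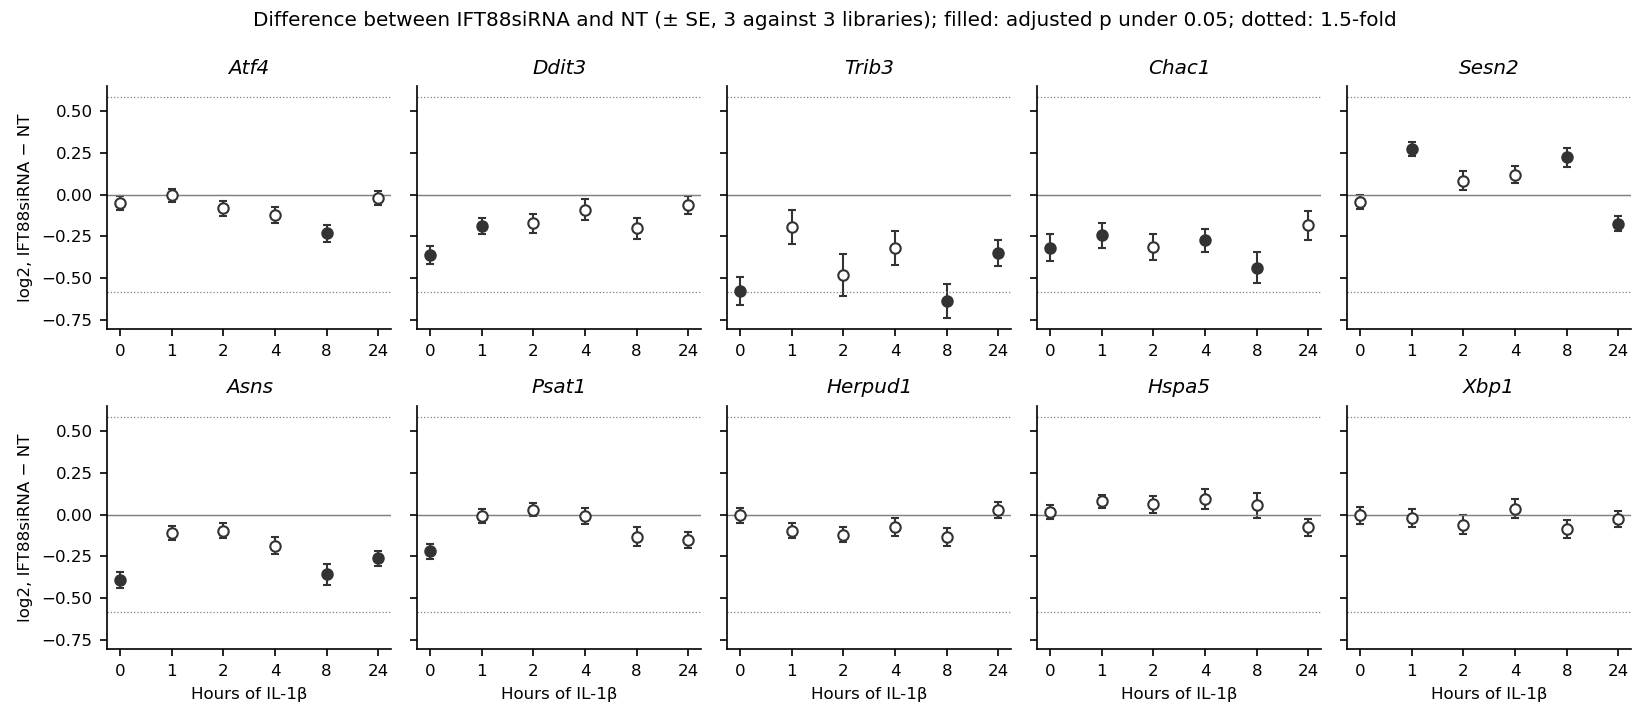
Difference between IFT88siRNA and NT (log2, edgeR, with SE, 3 against 3 libraries) at each time for the 10 genes. Filled points passed an adjusted p of 0.05 and dotted lines mark a fold of 1.5. *Trib3*, *Chac1*, *Asns*, *Ddit3* and *Atf4* (−0.0037 at 1 h) lie below 0 at all 6 times. *Sesn2* lies above 0 from 1 h to 8 h, and *Hspa5* and *Xbp1* stay within 0.10 of 0.

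The ER genes gave small differences. Over the 6 times, the differences of *Hspa5* were from −0.077 ± 0.0522 to 0.093 ± 0.0609, and those of *Xbp1* from −0.086 ± 0.0559 to 0.034 ± 0.0570. *Herpud1* ranged from −0.13 ± 0.0525 to 0.029 ± 0.0477. None of the 18 passed an adjusted p of 0.05 at a single time, where 9.70% of the differences of all genes over the 6 times did. For all 3 genes the libraries of the siRNA groups overlapped at 0 h, as in *Hspa5* with 701 to 753 CPM against 698 to 751 CPM.

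Whether the response to IL-1β itself differed was tested by the interaction, that is the change from 0 h in IFT88siRNA minus the change in NT. With both thresholds edgeR called 0 of the 10 (all genes: 1.20%), and DESeq2 also called 0. In edgeR 6 of 10 had an unadjusted p under 0.05 (all genes: 16.8%). With the adjusted p alone, 2 of 10 passed in edgeR, *Sesn2* and *Asns* (all genes: 5.53%). In DESeq2 4 of 10 did, with *Atf4* and *Psat1* in addition. With TPM, *Asns* passed at no setting and *Ddit3* passed at 2 (limma, lowest adjusted p = 0.0466). *Sesn2* was lowered less in IFT88siRNA: at 1 h it was at 110.5, 118 and 115 CPM, against 88.4, 95.0 and 92.1 CPM in NT, and at 8 h at 114, 108 and 99.1 CPM, against 91.9, 86.5 and 92.1 CPM. At 0 h the groups overlapped, with 129.6 to 136 CPM against 135 to 139 CPM, whereas at 1 h and 8 h every IFT88siRNA library was above every NT library. The interaction of *Sesn2* was 0.33 ± 0.0659 (SE, adjusted p = 0.00324) at 1 h and 0.29 ± 0.0657 (SE, adjusted p = 0.0194) at 8 h. At 2 h, the lowest time, it was 0.13 ± 0.0682 and did not pass (adjusted p = 0.452). The joint adjusted p of *Sesn2*, 5.16e-05, stayed under 0.05 with any 1 replicate left out, at most 0.0272. Its single terms then reached 0.125 at 1 h and 0.333 at 8 h, both without replicate 1, and the 1 h term passed only without replicate 3.

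*Asns* gave an interaction of 0.29 ± 0.0740 (SE, adjusted p = 0.0275) at 1 h and 0.30 ± 0.0742 (SE, adjusted p = 0.0326) at 2 h. The IFT88siRNA libraries went from 63.6 to 73.5 CPM at 0 h to 89.0 to 97.6 CPM at 1 h, and the NT libraries from 87.5 to 91.6 CPM to 96.8 to 98.9 CPM. All 5 interaction terms share the libraries at 0 h. The joint adjusted p of *Asns* (0.0164) was between 0.113 and 0.365 when 1 replicate was left out, and both single terms were then lost as well. *Psat1* gave 0.25 ± 0.0672 (SE, adjusted p = 0.0498) at 2 h, which was lost with any 1 replicate left out (up to 0.413), and its adjusted p over the course was 0.0533. That value lay on either side of the threshold: it passed in 8 of 11 alternatives, which were those with all replicates (0.00504 to 0.0414, the replicate block included at 0.0209), and rose to between 0.102 and 0.502 with 1 replicate left out. *Asns* passed in 5 of 11.

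**Figure D4:**
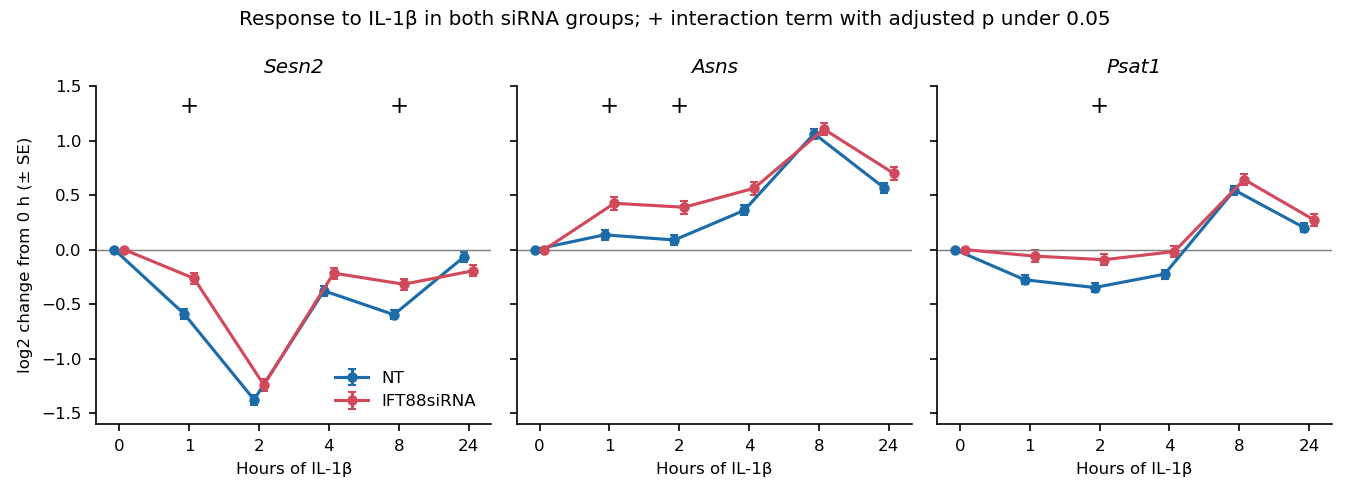
log2 change from 0 h (edgeR, with SE) in NT (blue) and IFT88siRNA (red) for *Sesn2*, *Asns* and *Psat1*, with a plus sign where the interaction term had an adjusted p under 0.05. The red points of *Sesn2* lie above the blue ones from 1 h to 8 h, and those of *Asns* and *Psat1* mainly from 1 h to 4 h.

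Other genes of the same responses were described by lists taken from general knowledge, but chosen with earlier results of these data known. The shares of all genes beside their counts are therefore a description and not a test. Among 12 sensors, kinases and phosphatase subunits, 4 changed in NT, all upward (all genes: 50.0% changed). They included *Ppp1r15a*, which encodes the eIF2α phosphatase subunit GADD34 (2.42 ± 0.0574 at 1 h), and *Eif2ak2*, which encodes the kinase PKR (1.76 ± 0.0409 at 4 h). Of 11 tested other stress factors and stress targets of ATF4, 9 changed, 5 upward, 1 downward and 3 in both directions. The largest rises were in *Cebpb* (3.26 ± 0.128 at 4 h) and *Atf3* (2.55 ± 0.0817 at 1 h), both transcription factors, and the largest falls in *Ddit4* (−1.59 ± 0.0572 at 2 h), an inhibitor of mTORC1 like *Sesn2*, and in *Stc2* (−1.13 ± 0.162 at 1 h).

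In the list of amino acid supply, 8 h was also the time with the most rises. Of 17 transporters and enzymes, 13 changed in NT (all genes: 50.0%), 12 of them upward. At 8 h 11 were raised (all genes: 11.8%), and the median change of the list was 0.61 against −0.0077 for all genes. The cystine transporter *Slc7a11* (1.66 ± 0.0891 at 8 h) and the glycine transporter *Slc6a9* (1.42 ± 0.0719 at 8 h) rose most, and *Cbs*, an enzyme that makes cystathionine, fell (−2.11 ± 0.312 at 4 h). Of 13 genes for cytosolic aminoacyl-tRNA synthetases and tRNA export, 5 changed (all genes: 50.0%). All 5 were raised at 8 h (all genes: 11.8%), led by *Tars* (0.83 ± 0.0398) and *Nars* (0.71 ± 0.0419). Beside *Hspa5*, few genes of ER folding changed: 2 of 17 chaperones and folding enzymes (all genes: 50.0%), *Ero1l* (1.29 ± 0.0556 at 24 h) and *Hyou1* (0.65 ± 0.0459 at 8 h). Beside *Herpud1*, 2 of 14 tested genes of ER-associated degradation and translocation changed (all genes: 50.0%), *Syvn1* (0.73 ± 0.0630 at 4 h) and *Sec24d* (0.66 ± 0.0399 at 2 h).

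Between the siRNA groups, the same lists gave the following counts by the adjusted p at 0 h, where 9.43% of all genes were lower and 19.5% differed in either direction. Of the 17 genes of amino acid supply, 11 were lower in IFT88siRNA and 0 higher, with a median difference of −0.25 against −0.0021 for all genes. *Slc7a11* differed most (−0.68 ± 0.119 at 0 h). Of 11 other stress factors and stress targets, 6 were lower and 0 higher (median −0.18), with *Atf3* at −1.03 ± 0.119, and of 13 synthetase genes 5 were lower and 0 higher (median −0.10). Of the 12 sensors, kinases and phosphatase subunits, 4 were lower and 1 higher (median −0.043). Of 17 ER chaperones and folding enzymes, 0 were lower and 1 higher (median 0.055), and of 15 genes of ER-associated degradation and translocation, 0 were lower and 3 higher (median 0.058).

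**Figure D5:**
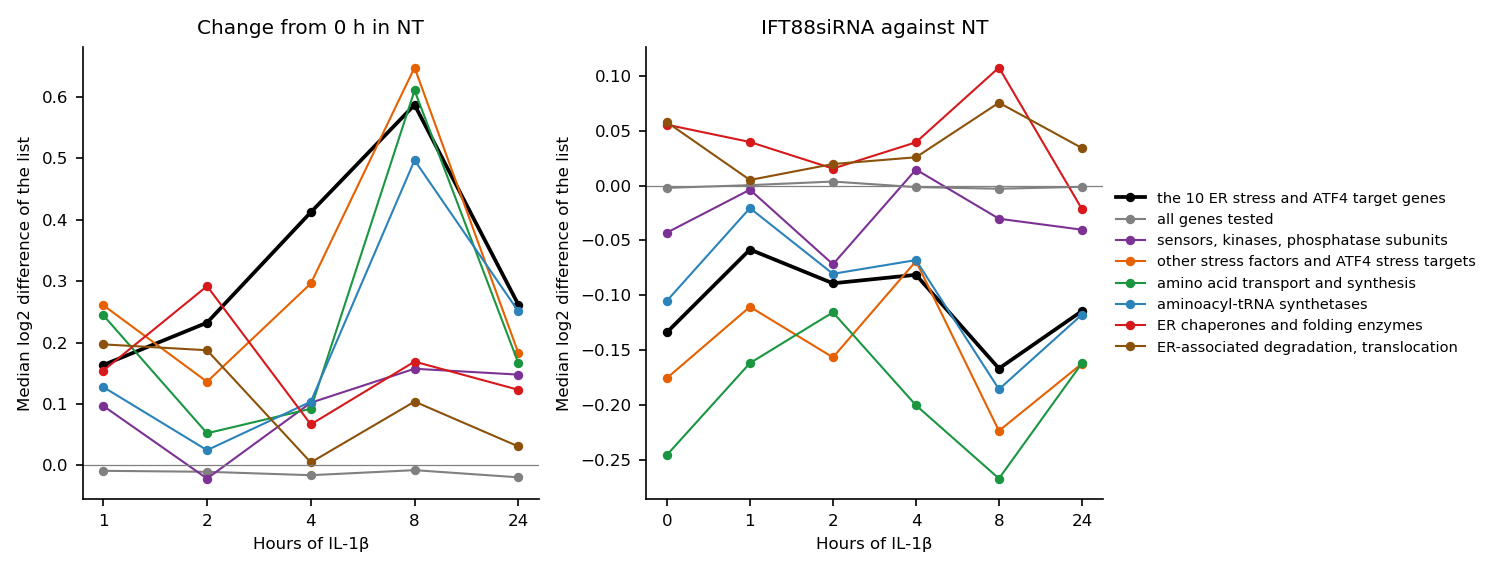
Median log2 difference of the 10 genes (black), all genes tested (grey) and the 6 lists, as the change from 0 h in NT (left) and as IFT88siRNA against NT (right), by hours of IL-1β. The medians of the 10 genes, amino acid supply, synthetases and other ATF4 stress targets are highest at 8 h on the left and below 0 at every time on the right, and those of ER chaperones are above 0 up to 8 h on the right.

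Profiles over the 12 conditions were compared as the root mean square difference of centred mean log2 CPM. Among the 10 genes, *Asns* and *Psat1* were the closest pair (0.202), before *Atf4* and *Hspa5* (0.230) and *Atf4* and *Chac1* (0.237). Among all genes tested, those nearest to *Ddit3* were *Cars* (0.0784), *Yars* (0.0851) and *Gm18959* (0.0919). Those nearest to *Asns* were *Txnrd3* (0.139), *Tars* (0.157) and *Eif4ebp1* (0.158). Those nearest to *Xbp1* were *Lrrc59* (0.0890), *Ugdh* (0.0902) and *Gpn2* (0.105). These 3 genes were picked after their values were seen. For the others, the single nearest gene was *Btg1* for *Atf4*, *Irak4* for *Trib3*, *Mfsd2a* for *Chac1* and *Slc1a5* for *Psat1*. It was *Zfp820* for *Sesn2*, *Zkscan5* for *Herpud1* and *Rdh13* for *Hspa5*. All profiles come from the same libraries, and a small difference is favoured where a gene itself varies little.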

How the data were processed

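Poly(A) RNA from 36 samples was sequenced as paired-end reads. Per the labels and methods, the authors aligned reads to GRCm38 with HISAT2 2.1.0 and deposited raw counts per gene from featureCounts (Subread 1.6.3, default parameters). The authors also deposited TPM values from Salmon 0.9.1. Groups and times came from the labels.

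Counts were analysed with edgeR 4.0.16 in R 4.3.3: TMM scaling, filterByExpr, and two-sided quasi-likelihood tests adjusted over all genes tested (16048 in the 18 NT libraries). The 5 differences from 0 h were tested together and singly within each siRNA group, IFT88siRNA against NT at each time in 6 libraries, and the course and the interaction in all 36 libraries. ImpulseDE2, the tool named in the methods for the course, was not used here. The SE is the absolute log2 change divided by the square root of F. It includes the spread between replicates. Reads carry no molecular identifiers. CPM are TMM-scaled over all libraries. Replicates differed by more than sampling noise (chi-square per degree of freedom 1.71 to 10.9), so each counted as 1 sample.

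The 10 genes and all lists were chosen with earlier results of these data known. From each list, the 2 largest rises and 2 largest falls in NT among genes called, and the largest difference between siRNA groups among genes called over the course, are named. The list values at 0 h of genes named for the latter are from the fit of all 36 libraries. Several nearest profiles are named for 3 genes, chosen after their values were seen, and the single nearest for the others.

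Alternatives were RLE or upper-quartile scaling, no filter on low counts, no fold threshold, DESeq2 1.42.0, the replicate block, leaving out each replicate, all 36 libraries in 1 model, and limma 3.58.1 on log2(TPM + 1) with TPM over 1 in 3 libraries, a pseudocount of 0.1, or no filter. The code was tested on simulated counts. Promoter sequences and positions came from RefSeq and GENCODE tables of GRCm38. Plots used matplotlib 3.10.9 (Python 3.11.15).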

Additional observations from a re-analysis of the deposited data

Results flagged for a closer look

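The response of *Sesn2* to IL-1β differed between the siRNA groups, with an adjusted p of 5.16e-05 for the 5 interaction terms together (edgeR's quasi-likelihood test) and single terms from −0.12 ± 0.0648 at 24 h to 0.33 ± 0.0659 at 1 h. Under the 11 alternatives its adjusted p was between 6.00e-11 and 0.0272. The response of *Asns* also passed this joint test, with an adjusted p of 0.0164. Under the alternatives it was between 0.00103 and 0.365 and passed in 5 of 11, all of them fits of counts with all replicates. It was lost with any 1 replicate left out and with every TPM setting. Neither gene differed by 1.5-fold in its response at any time.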

How the results depend on the processing

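The number of genes called after IL-1β stayed at 8 in NT under all alternatives but that with no fold threshold, with *Psat1* in place of *Atf4* under TPM, and in IFT88siRNA it was 7 with TPM (*Atf4* and *Psat1* lost) and 9 under the others that kept the fold threshold. Without a fold threshold the counts were 45 of 50 in NT, 43 of 50 in IFT88siRNA, 7 and 17 between the siRNA groups over the course and at single times, and 2 for the response. With TPM, at any of its 3 settings, 11 of 50 were called at single times in IFT88siRNA. With upper-quartile scaling, 2 differences between the siRNA groups were called, *Trib3* at 0 h in addition, and leaving out 1 replicate gave from 0 to 1. The cause was not tested. With all TPM settings, *Ddit3* at 1 h in NT turned from 0.19 to −0.0053 and *Herpud1* at 4 h in IFT88siRNA from 0.29 to −0.016. With log2(TPM + 1) the median of all genes was at −0.14 in the former comparison and −0.19 in the latter. Values past the adjusted p were recomputed under each alternative. After IL-1β, 44 of 540 in NT and 21 of 516 in IFT88siRNA no longer passed, besides the 6 that changed sign. Between the siRNA groups 63 of 204 no longer passed, 11 of 17 differences with TPM and 16 of 17 with TPM and no filter, and for the response 20 of 55 did not. Between replicates with the same number, the correlation of their deviations was from −0.27 to 0.52 over 18 pairs. It was over 0.1 in 8 pairs, and 7 of 18 correlated best with their own number. Whether a number marks a shared culture cannot be told from these values. With the replicate block, 8 genes were called after IL-1β in NT, 9 in IFT88siRNA and 1 between the siRNA groups, as without it, and *Psat1* was added to *Sesn2* and *Asns* among the genes whose response differed by the adjusted p (0.0209).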
